A study of Mus musculus with 2 samples.

Results

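The killer cell lectin-like receptors are C-type-lectin-like membrane proteins encoded by the Klr genes. All 26 genes whose symbol begins with Klr were taken, of 31053 genes in the deposited matrix, and the rule reads names and not levels. The cells came from B16F10 tumours, grown from a mouse melanoma line that was injected 2 weeks earlier. The recipients were either LysM-cre x RelloxP/loxP mice, in which the NF-kB subunit gene Rel is deleted in myeloid cells, or LysM-cre x Rel+/+ mice as wild type. Both genotypes carry LysM-cre, which is driven by the promoter of the lysozyme gene expressed in monocytes, macrophages and neutrophils and not a promoter of NK or T cells. For each genotype, viable CD45+ cells sorted from 5 pooled tumours gave 1 droplet 3′ library, and ages of the mice are not given in the labels.

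The matrix holds both libraries and marks barcodes only by a library number, 1 or 2, which no label ties to a genotype. Levels are therefore given for library 1 and library 2 side by side, and no comparison between genotypes was made. Rel itself stood at 192 CPM in monocyte/macrophage barcodes of library 1 (95% interval 176–209) and at 33.3 CPM in library 2 (26.1–41.8). In neutrophil barcodes it stood at 159.7 CPM (89.4–263, 15 UMIs) and 132.5 CPM (53.3–273, 7 UMIs). These values were not used to name a library. Whether the 3′ end of Rel lies in the deleted part is not given in the labels. Library 1 held 7688 barcodes and 49129318 UMIs (unique molecular identifiers, 1 per captured transcript), and library 2 held 10564 barcodes and 73507228 UMIs. Barcodes were put into classes by UMIs of marker genes, none of them a Klr gene. The libraries shared 3609 barcode sequences, and a barcode with less than a 10th of the UMIs of its namesake in the other library was left out. Of the barcodes kept in immune classes, 46 of 2142 in library 1 and 5 of 1544 in library 2 still shared their sequence. Despite the CD45 sort, 2154 and 5002 barcodes carried melanocyte genes above 0.5% of their UMIs and formed a class of their own.

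Natural killer (NK) cells read their targets through the balance of activating and inhibitory members of this family. In the mouse, the Klra genes encode the Ly49 receptors, many of which bind MHC class I. The Klrc products NKG2A and NKG2C pair with CD94, the product of Klrd1, and bind the class I-like molecule Qa-1, whereas NKG2D, the product of Klrk1, binds stress-induced ligands. Activating members signal through the adaptors DAP12 (Tyrobp) and DAP10 (Hcst) or Fc receptor gamma (Fcer1g), and inhibitory members recruit phosphatases such as SHP-1 (Ptpn6).

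By known role, 7 members were counted as activating, 12 as inhibitory and 3 as partner chains, and 4 were left without a role (Klrg2, Klrb1, Klrc3 and Klra10). Klra genes make up 11 of the 26, Klrb1 genes 5 and Klrc genes 3. All 26 lie on chromosome 6 of GRCm38, and 24 of them fall within 2.64 Mb at chr6:128609227-131247362 (GENCODE M21). Klrg1 (chr6:122270596-122282882) and Klrg2 (chr6:38625693-38637242), both on the minus strand and protein-coding, lie outside that cluster.

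NK barcodes were defined by no UMI of Cd3d, Cd3e or Cd3g and at least 2 UMIs of Ncr1 and Gzma together, which left 272 barcodes in library 1 and 82 in library 2. Genes outside that gate matched the name: Eomes, a T-box factor of NK cells, stood at 277 and 131 CPM (counts per 1e6 UMIs of the class), Txk at 699 and 594 CPM, and the T cell receptor gene Trac at 10.9 and 35.6 CPM. NK barcodes were shallow, with a median of 806 and 690.5 UMIs, against 2708.5 and 2237 UMIs in CD8 T barcodes with a granzyme UMI. All intervals below are 95% and cover counting error only, since each library is a single pool without a replicate.

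The summed level of the family was highest in NK barcodes. All members together made up 4191 CPM of NK barcodes in library 1 and 2434 CPM in library 2. The sums were 530 and 330 CPM in CD8 T barcodes with granzyme, 571 and 533 CPM in CD8 T barcodes without, and 632 and 370 CPM in other T barcodes (no Cd4, Cd8a or Cd8b1 UMI). Monocyte/macrophage barcodes held 94.5 and 51.0 CPM, and melanocyte barcodes held 4.94 and 3.15 CPM. At least 1 Klr UMI was found in 94.5% of NK barcodes in library 1 (91.1–96.9%) and in 90.2% in library 2 (81.7–95.7%). The melanocyte barcodes, taken as a background, had one in 6.59% and 3.22% of barcodes, although their median depth was 17945.5 and 11858.5 UMIs. The source of these UMIs, 27 and 47 of them from Klrg2, was not tested. By number, NK barcodes held 1151 of the 2992 Klr UMIs of library 1 and 205 of the 1254 of library 2. Class sums leave out 487 and 307 Klr UMIs of barcodes that met no gate and 76 and 18 of barcodes that met gates of more than 1 lineage.

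**Figure D1:**
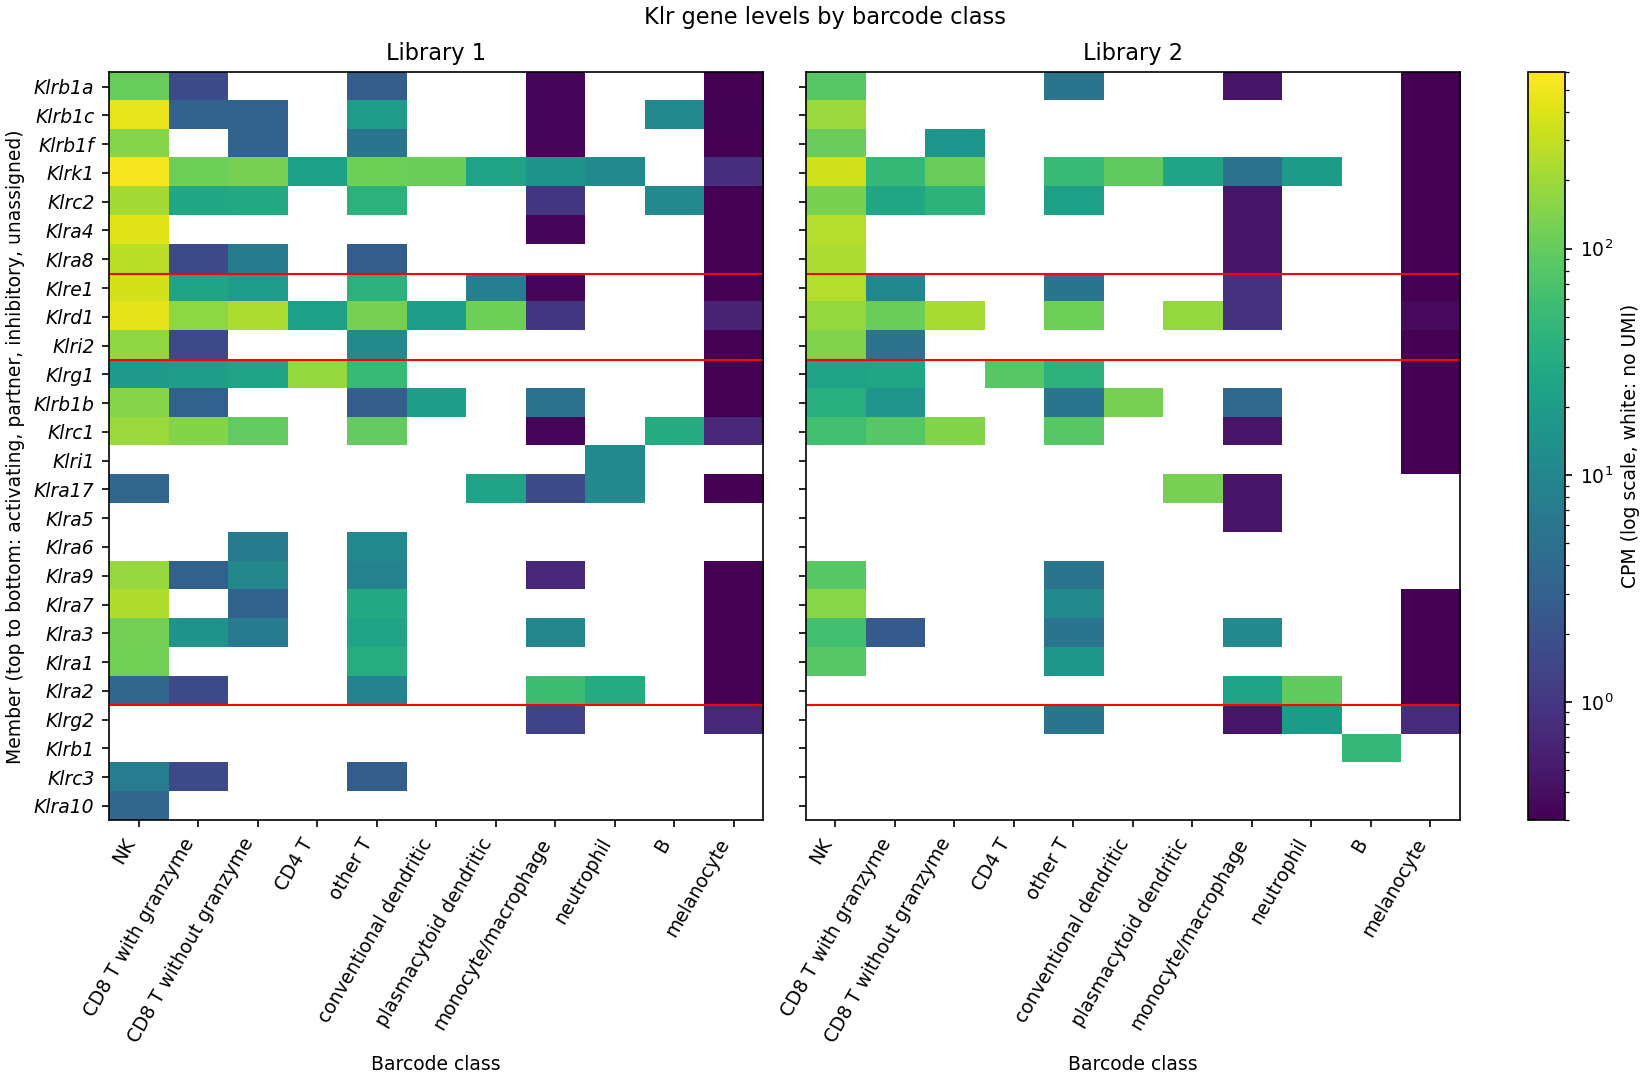
Level of each of the 26 Klr genes (rows, ordered by role, with red lines between roles) in 11 barcode classes (columns) of library 1 (left) and library 2 (right), as CPM on a log colour scale. White marks no UMI, and values under 0.3 CPM share the darkest colour. NK barcodes carry most members, CD8 T and other T barcodes a small set led by Klrd1, Klrk1 and Klrc1, and monocyte/macrophage barcodes chiefly Klra2. The few Klr UMIs of CD4 T barcodes are chiefly Klrg1.

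Among activating members, Klrk1 was the most widely seen, with UMIs in both libraries in every class except CD4 T and B barcodes. NK barcodes held 535 CPM of Klrk1 in library 1 (452–629, 147 UMIs) and 344 CPM in library 2 (231–495, 29 UMIs). CD8 T barcodes with granzyme held 111 CPM (86.2–140) and 49.4 CPM (29.7–77.1). The level in NK barcodes was thus 4.83-fold that in CD8 T barcodes with granzyme in library 1 (3.61–6.53) and 6.98-fold in library 2 (3.78–13.2). Klrk1 was seen in 39.0% and 30.5% of NK barcodes, against 26.4% and 13.3% of the deeper CD8 T barcodes with granzyme and 1.44% and 0.340% of melanocyte barcodes. With every barcode thinned to 1000 UMIs, the shares were 33.8% of 68 NK barcodes and 43.8% of 16, against 9.94% of 161 and 5.69% of 123 CD8 T barcodes with granzyme. Thinning left out 204 and 66 shallower NK barcodes and 13 and 12 CD8 T barcodes.

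Klrb1c encodes NK1.1, the antigen by which mouse NK cells are often sorted. It stood at 452 CPM in NK barcodes of library 1 (376–538, 124 UMIs) and at 190 CPM in library 2 (109–309, 16 UMIs). CD8 T barcodes with granzyme held 2 UMIs of it in library 1 and none in library 2. The ratio was 141 in library 1 (38.1–1174), and in library 2 NK barcodes were at least 24.4-fold higher when the count of 0 is set to its limit of 3 UMIs, and the interval of the ratio itself began at 17.6. The activating relatives Klrb1f (149 and 107 CPM) and Klrb1a (102 and 83.1 CPM) were also found chiefly in NK barcodes. Klrc2, which encodes NKG2C, stood at 215 and 131 CPM in NK barcodes, against 28.9 and 28.6 CPM in CD8 T barcodes with granzyme, a 7.43-fold (4.32–13.4) and 4.57-fold (1.80–11.6) difference.

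Klra4 and Klra8 encode the activating receptors Ly49D and Ly49H, which signal through DAP12. NK barcodes carried 430 CPM of Klra4 in library 1 (356–515, 118 UMIs) and 261 CPM in library 2 (164–396, 22 UMIs). Klra8 stood at 273 CPM (215–342, 75 UMIs) and 238 CPM (145–367, 20 UMIs). In CD8 T barcodes with granzyme, Klra4 had no UMI in either library and Klra8 had 1 UMI in library 1 and none in library 2. Against that limit, NK barcodes were at least 89.2-fold higher for Klra4 in library 1 and at least 33.5-fold higher in library 2, and the intervals of the ratios began at 71.4 and 25.0. Both genes were seen together in 17 NK barcodes of library 1, which is 25.0% of those with Klra4 and 37.0% of those with Klra8, and in 2 barcodes of library 2.

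The partner chains split between the lymphocyte classes. Klrd1, whose product CD94 is needed by NKG2A and NKG2C, stood at 444 CPM (369–530, 122 UMIs) and 178 CPM (99.7–294, 15 UMIs) in NK barcodes. CD8 T barcodes with granzyme held 164 CPM (134–199) and 109 CPM (78.6–148) of Klrd1, so that NK barcodes were 2.71-fold higher in library 1 (2.07–3.56) and 1.63-fold higher in library 2 (0.841–3.01), where the interval includes 1. Klre1 forms dimers with the KLRI chains in mouse NK cells. It stood at 371 CPM (303–451, 102 UMIs) and 261 CPM (164–396, 22 UMIs) in NK barcodes, against 25.7 CPM (16 UMIs) and 10.4 CPM (4 UMIs) in CD8 T barcodes with granzyme. Klri2, its partner, stood at 171 and 143 CPM in NK barcodes and had 1 and 2 UMIs in those CD8 T barcodes, while Klri1 had no UMI in NK barcodes of either library.

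Inhibitory members were not uniformly higher in NK barcodes. Klrc1, which encodes NKG2A, stood at 193 CPM (145–252, 53 UMIs) and 59.4 CPM (19.3–139, 5 UMIs) in NK barcodes, against 148 CPM (119–181, 92 UMIs) and 83.1 CPM (56.9–117, 32 UMIs) in CD8 T barcodes with granzyme. The ratio of 1.31 in library 1 (0.914–1.85) and 0.714 in library 2 (0.217–1.85) did not differ from 1 beyond counting error. Klrg1, an inhibitory receptor of effector lymphocytes that binds cadherins, had only 5 and 2 UMIs in NK barcodes, against 13 and 10 UMIs in CD8 T barcodes with granzyme, with ratios of 0.872 (0.243–2.61) and 0.914 (0.0974–4.29).

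The inhibitory Ly49 genes Klra7 (240 and 154 CPM), Klra9 (186 and 83.1 CPM) and Klra1 (120 and 83.1 CPM) were seen mainly in NK barcodes. Klra3, which encodes Ly49C, stood at 124 CPM (34 UMIs) and 59.4 CPM (5 UMIs) there, against 14.5 CPM (9 UMIs) and 2.60 CPM (1 UMI) in CD8 T barcodes with granzyme. Klrb1b stood at 149 CPM (41 UMIs) in NK barcodes of library 1 and had 3 UMIs in library 2, where CD8 T barcodes with granzyme held 6 UMIs.

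**Figure D2:**
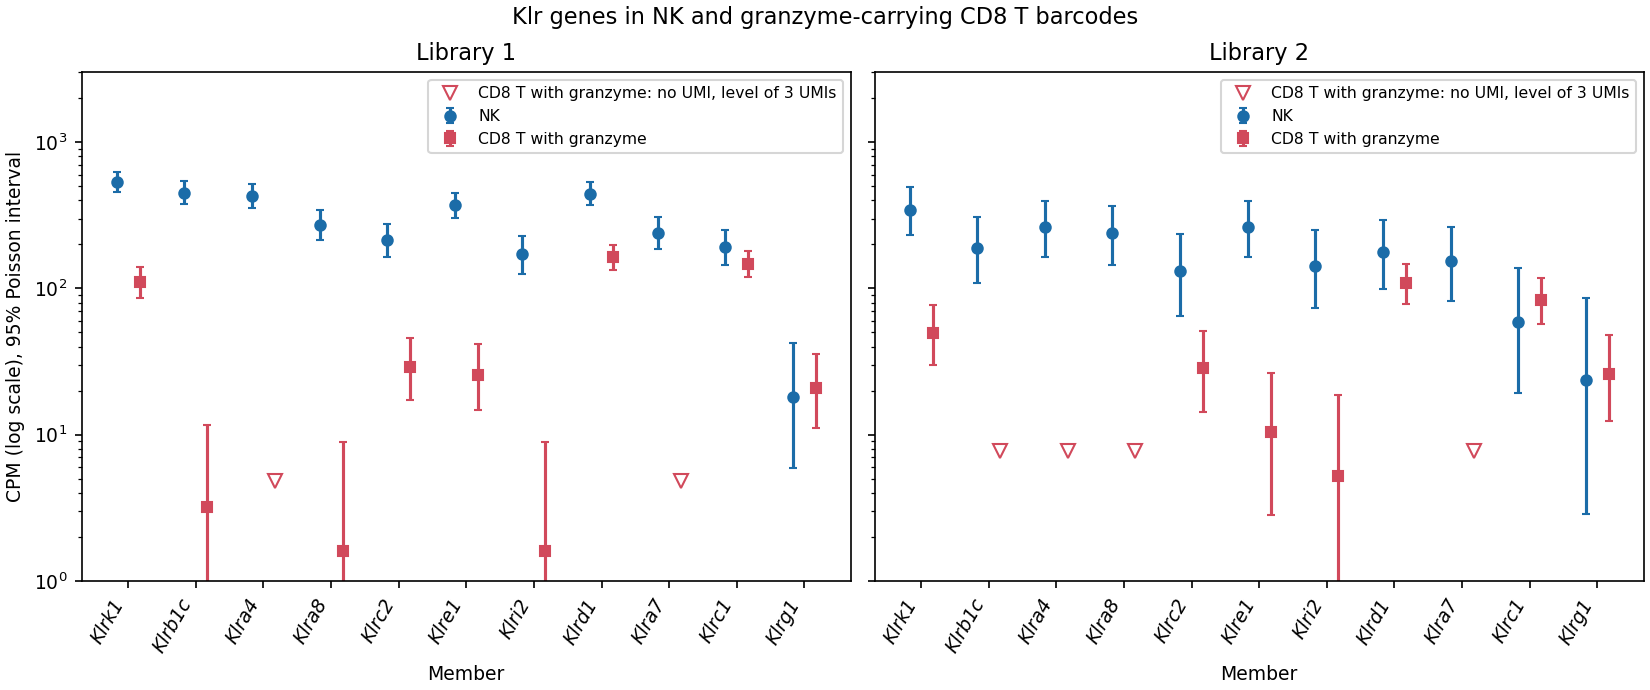
CPM (log axis) of the 11 Klr genes that had 10 or more UMIs per library in the 2 classes together, in NK barcodes (blue circles) and CD8 T barcodes with a granzyme UMI (red squares), with 95% Poisson intervals that run off the axis at 1 CPM. Open triangles mark genes with no UMI and stand at the level of 3 UMIs. The 2 classes lie together for Klrc1 and Klrg1, close for Klrd1, and far apart for Klra4, Klra7, Klra8 and Klrb1c.

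To set these differences against all genes, a gene was called when its ratio was at least 2, or at most 0.5, in both libraries. At a minimum of 50 UMIs per library, summed over the pair of classes, Klrd1 was the only member that could be read in NK over CD8 T barcodes with granzyme, and it was called in neither direction, where 2.75% of 1235 genes were called higher and 6.15% lower. With at least 10 UMIs, 8 of 11 members were called higher (Klrk1, Klrb1c, Klra4, Klra8, Klrc2, Klre1, Klri2 and Klra7), against 4.6% of 5025 genes, and none was called lower, against 7.36%. The median log2 ratio of the 11 members was 3.82 in library 1 and 4.51 in library 2, against -0.04 and -0.01 over all genes. In library 2, Klrb1c, Klre1, Klri2, Klra4, Klra8 and Klra7 reached that minimum only through NK barcodes, so that their direction there followed from the minimum. These counts and medians describe which members could be read and not the whole family, and they do not measure an excess over all genes. Where fewer NK UMIs were left, fewer members could be read: 1 of 5 was called higher among barcodes of at least 1000 UMIs and 3 of 5 with an NK gate that asked for an Ncr1 UMI, and Klrk1 was called in both.

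Of the adaptors, phosphatases, ligands and other NK receptors listed beside the family, 26 of 31 had a row in the matrix. In NK over CD8 T barcodes with granzyme, Tyrobp and Fcer1g were called higher among 3 adaptors and phosphatases with at least 50 UMIs, beside 2.75% of 1235 genes. Neither of the 2 ligands was called. Tyrobp stood at 2469 and 1971 CPM in NK barcodes against 69.1 and 156 CPM, a 35.8-fold (26.3–49.9) and 12.7-fold (9.36–17.3) difference. Hcst, the adaptor of NKG2D, stood at 535 and 428 CPM against 300 and 392 CPM and was not called. With at least 10 UMIs, 3 of 6 adaptors and phosphatases were called higher, Inpp5d added to the first ones, beside 4.6% of 5025 genes, and none of 3 ligands. Of 5 other NK receptors, Cd244, Fcgr3 and the gate gene Ncr1 were called higher. Cd226 was called lower (3 and 0 UMIs in NK barcodes, against 16 and 13), beside 7.36% of genes. The intervals of Cd226 included 1 in both libraries (0.0794–1.49 and 0–1.5), so its difference was not detectable at this depth.

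Between CD8 T barcodes with and without a granzyme UMI, none of the 5 members with at least 10 UMIs per library differed by a factor of 2 in both libraries. Klrd1 stood at 164 and 109 CPM with granzyme, against 233 CPM (182–295) and 221 CPM (146–322) without, and Klrk1 at 111 and 49.4 CPM, against 125 and 107 CPM. Klrd1 was 0.702-fold in library 1 (0.512–0.968) and 0.493-fold in library 2 (0.297–0.832), below 1 in both but past the factor of 2 in library 2 alone. Klrc1 went in different directions, with 148 and 83.1 CPM in barcodes with granzyme, against 98.0 and 148 CPM in barcodes without. No member was called among 2 with at least 50 UMIs (0.733% of 1365 genes higher, 0.147% lower) or among 5 with at least 10 UMIs (1.96% higher and 0.558% lower of 5201 genes). Barcodes without a granzyme UMI were also shallower, with a median of 1349 and 1116.5 UMIs, and the part of depth in this gate was not tested.

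Klrd1 and Klrc1, the 2 chains of the NKG2A receptor, were found together in 30 CD8 T barcodes with granzyme of library 1, which is 52.6% of those with Klrd1 and 50% of those with Klrc1. In library 2 they shared 9 barcodes, 25.7% and 36.0%. In NK barcodes they shared 15 in library 1, 16.7% of those with Klrd1 and 37.5% of those with Klrc1, and 1 in library 2. CD8 T barcodes without granzyme shared 7 and 4, which is 15.9% and 19.0% of those with Klrd1. In library 1, Klrc1 was seen in 60 of 174 CD8 T barcodes with granzyme and in 40 of 272 NK barcodes. The classes also differ in depth, and the part of depth and of these detection rates in the shared barcodes was not tested.

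CD4 T barcodes were few, 26 in library 1 and 7 in library 2, and held 10 and 1 Klr UMIs. Of these, 8 and 1 were Klrg1, or 180 CPM in library 1 (77.6–354), against 20.9 CPM (13 UMIs) in CD8 T barcodes with granzyme. With at least 10 UMIs over both classes, 4 of 5 members (Klrd1, Klrk1, Klrc2 and Klrc1) were called higher in CD8 T barcodes with granzyme than in CD4 T barcodes, beside 13.2% of 4454 genes, and Klrg1 lower, beside 3.61%. In library 2 each of these 4 had no UMI in CD4 T barcodes, and 3 UMIs there would exceed the level in CD8 T barcodes, so the difference was not detectable in that library. In library 1 the interval lay above 1 for Klrd1 (7.29-fold, 1.28–291) and for Klrc1 (92 against 0 UMIs, from 1.75), and included 1 for Klrk1 (4.93-fold, 0.856–198) and Klrc2 (18 against 0 UMIs, from 0.314). For Klrk1 and Klrc2 the difference was thus not detectable in either library. Klrg1 was 0.116-fold in library 1 (0.0446–0.323) and 0.312-fold in library 2 (0.0444–13.5), and its call held in 9 of 13 settings tried. No member reached 50 UMIs, the minimum at which 4.37% of 1029 genes were called higher and 0.875% lower. Among other T barcodes of library 1, Klrg1 had 9 UMIs in the 27 with a Foxp3 UMI (134 CPM, 61.4–255), the gene of regulatory T cells, and 8 UMIs in the 209 with neither Foxp3 nor Trdc (30.6 CPM, 13.2–60.4). The 25 other T barcodes of library 1 with the gamma-delta receptor gene Trdc held 324 CPM each of Klre1 and Klrc1 (8 UMIs each) and 284 CPM of Klrk1 (7 UMIs). Only 3 such barcodes were found in library 2, with 1 Klrk1 UMI and no UMI of Klre1 or Klrc1. In library 2, the 5 other T barcodes with Foxp3 held no Klrg1 UMI, and the 110 with neither gene held 7. Of the CD4 T barcodes of library 1, 1 of the 7 with Foxp3 held 2 Klrg1 UMIs (106 CPM, 12.8–382). Among the 19 without Foxp3, 2 held 6 (234 CPM, 86.0–510), so the CD4 T level of Klrg1 rested on few barcodes.

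Summed by role, activating members led in NK barcodes. They held 592 UMIs against 285 of inhibitory members in library 1, and 114 against 42 in library 2. The activating share was 67.5% (64.3–70.6%) and 73.1% (65.4–79.9%). In CD8 T barcodes with granzyme the activating share was 43.3% (36.5–50.3%) and 38.0% (27.3–49.6%), and the intervals of the 2 classes did not overlap in either library. In library 2 they did overlap among barcodes of at least 1000 UMIs, at 63.2% (46.0–78.2%) in NK and 38.0% (27.3–49.6%) in CD8 T barcodes with granzyme, and after thinning to 1000 UMIs, at 57.1% (37.2–75.5%) and 46.7% (28.3–65.7%). CD8 T barcodes without granzyme lay between them with 53.2% (42.6–63.6%) and 52.6% (35.8–69.0%). In monocyte/macrophage barcodes the share was 19.2% (14.7–24.5%) and 15.0% (8.80–23.1%). In melanocyte barcodes, whose few Klr UMIs were taken as a background, it was 49.6% and 46.1%. Outside NK barcodes single members made up much of these sums. In CD8 T barcodes with granzyme, Klrk1 gave 69 of 91 and 19 of 30 activating UMIs, and Klrc1 92 of 119 and 32 of 49 inhibitory UMIs. In monocyte/macrophage barcodes, Klra2 gave 163 of 214 and 54 of 91 inhibitory UMIs.

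**Figure D3:**
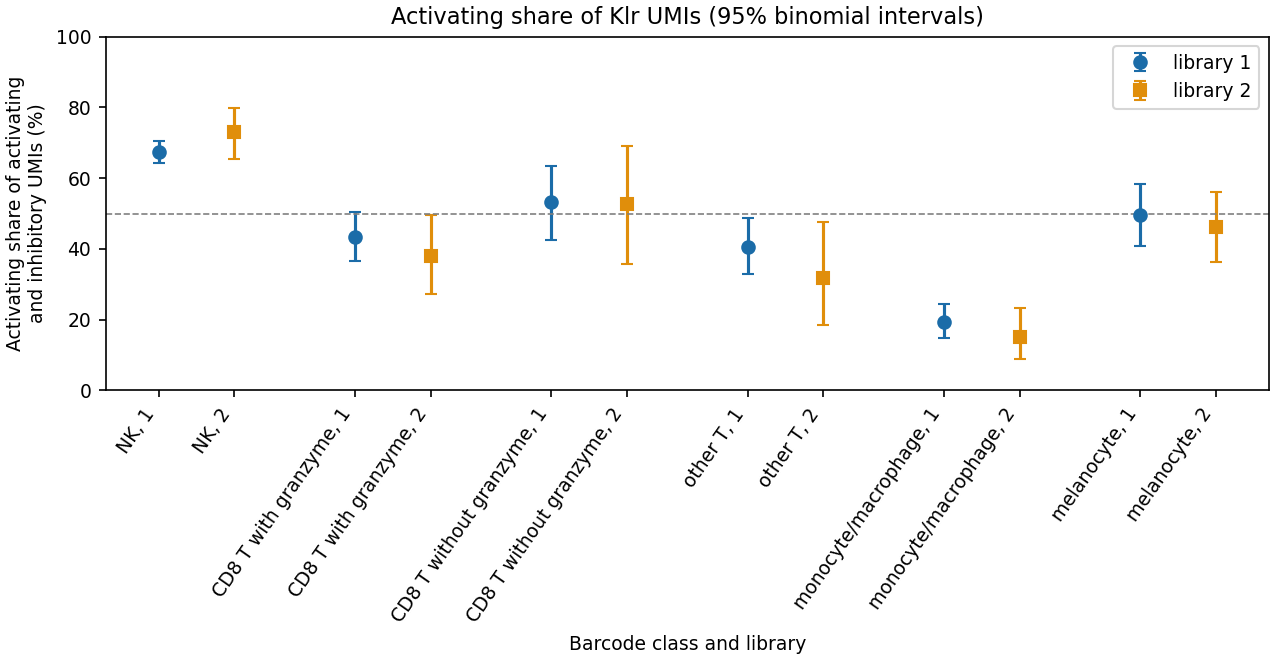
Activating members' share (percent, y axis) of the UMIs of activating and inhibitory Klr members, per barcode class and library (x axis), with 95% Clopper-Pearson intervals and a dashed line at equal shares. NK barcodes lie above the line in both libraries at 67.5% and 73.1%, and monocyte/macrophage barcodes lowest at 19.2% and 15.0%.

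UMIs of both kinds met in single NK barcodes. In library 1, 129 of 272 NK barcodes held activating and inhibitory UMIs, 88 only activating, 23 only inhibitory and 32 neither, and in library 2 the counts were 20, 37, 10 and 15 of 82. At these depths a missing UMI does not show a missing transcript. Each NK cell is known to express only some of the Ly49 genes. A Klra UMI was found in 59.6% of NK barcodes in library 1 and 59.8% in library 2, against 5.17% and 0.741% of CD8 T barcodes with granzyme. Of 272 NK barcodes, 91 held 1 Klra gene, 56 held 2, 12 held 3 and 3 held 4 or more, and of 82 in library 2, 37 held 1 and 12 held 2.

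**Figure D4:**
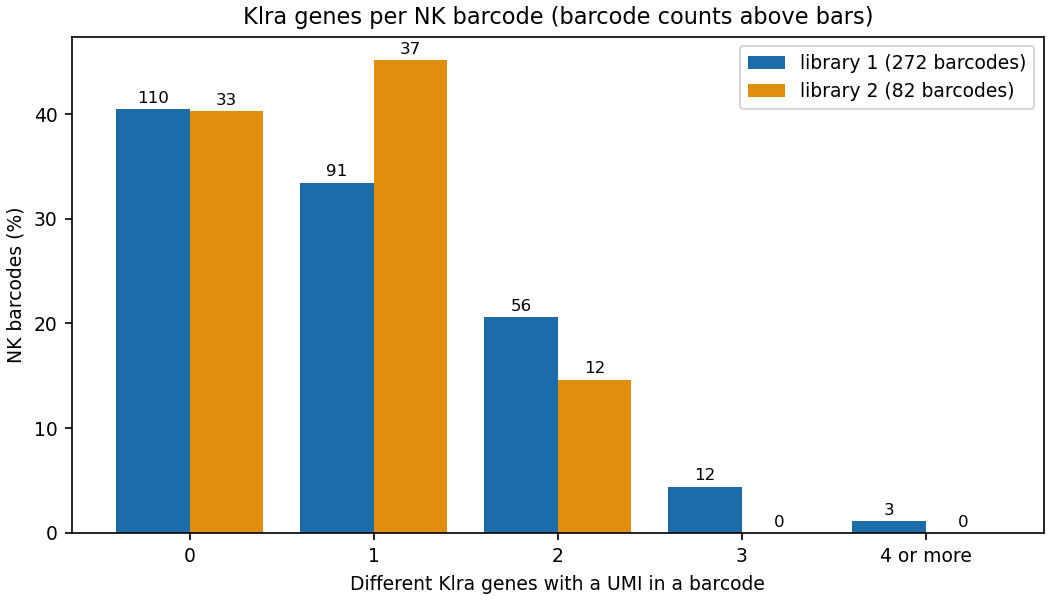
Share of NK barcodes (percent, y axis) by the number of different Klra genes with a UMI (x axis), for library 1 (blue, 272 barcodes) and library 2 (orange, 82 barcodes), with barcode counts above the bars. No Klra UMI was seen in 110 and 33 barcodes, and no barcode of library 2 held more than 2 Klra genes.

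In monocyte/macrophage barcodes, Klra2 was the leading member. It encodes Ly49B, an inhibitory Ly49 receptor known in the mouse from myeloid cells. Monocyte/macrophage barcodes carried 163 UMIs in library 1 (56.4 CPM, in 14.2% of 956 barcodes) and 54 UMIs in library 2 (24.6 CPM, in 5.10% of 1000 barcodes). NK barcodes held 1 UMI and none, and melanocyte barcodes had one in 0.464% and 0.260%. In library 1 the NK level was 0.0645-fold that of monocyte/macrophage barcodes (0.00162–0.365). In library 2, 3 UMIs in NK barcodes would be 35.6 CPM, above the 24.6 CPM measured in monocyte/macrophage barcodes, so the difference was not detectable there. Klra2 was the only member with at least 50 UMIs in NK over monocyte/macrophage barcodes and was called lower, beside 17.6% of 5038 genes, with 4.61% called higher. With at least 10 UMIs, 11 of 12 members were called higher in NK barcodes, beside 7.86% of 9022 genes, and Klra2 lower, beside 16.6%. Most of the 11 reached the minimum through NK barcodes alone, so that their direction followed from the minimum. Klra2 was also seen in neutrophil barcodes, with 3 UMIs (31.9 CPM) and 5 UMIs (94.7 CPM).

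Monocyte/macrophage barcodes with a Klra2 UMI, 136 and 51 in number, held no UMI of Ncr1, Klrb1c, Klra4, Klra8 or Cd3e in either library. Of 2 further genes of NK and T cells, Nkg7 had 5 UMIs and Gzma 1 UMI in those of library 1, and neither had any in library 2. Klra3 was found at 9.69 CPM (28 UMIs) and 11.4 CPM (25 UMIs) in this class, in 26 and 22 barcodes, which also held none of the first 5 genes. They held 2 Gzma UMIs and 1 Nkg7 UMI in library 1, and 0 and 1 in library 2. Klra2 and Klra3 shared 6 barcodes in library 1, 4.41% of those with Klra2 and 23.1% of those with Klra3, and none in library 2. Klrk1 stood at 15.2 CPM (44 UMIs) and 5.47 CPM (12 UMIs), and Klrb1b at 5.19 and 4.10 CPM.

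After these values were seen, the class was split by the complement genes C1qa, C1qb and C1qc, which mark mature macrophages. Klra2 stood at 121 CPM in the 373 barcodes of library 1 without a C1q UMI and at 115 CPM in the 273 of library 2. In barcodes with at least 0.2% C1q, 508 and 663 in number, it stood at 30.6 and 7.22 CPM. Klra2 was thus 3.96-fold (2.82–5.58) and 15.9-fold (8.19–32.7) higher without C1q, although those barcodes were shallower, with a median of 1841 and 1058 UMIs against 3252 and 2411. With every barcode thinned to 1000 UMIs the ratio was 2.41 and 12.9, and from means over barcodes 3.01 and 8.57. Klra3 had 3 UMIs and none without C1q, against 25 UMIs in each library with C1q, a ratio without over with C1q of 0.333 (0.0644–1.09) and 0 (0–0.937). At a minimum of 10 UMIs, 1 of the 3 members read (Klra2) was called higher without C1q, beside 4.39% of 8708 genes, and 1 (Klra3) lower, beside 12%. The call of Klra3 rests on barcodes with C1q, through which it reached the minimum. Its interval includes 1 in library 1, and 3 UMIs without C1q in library 2 would leave a 1.41-fold difference, less than the factor of 2.

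**Figure D5:**
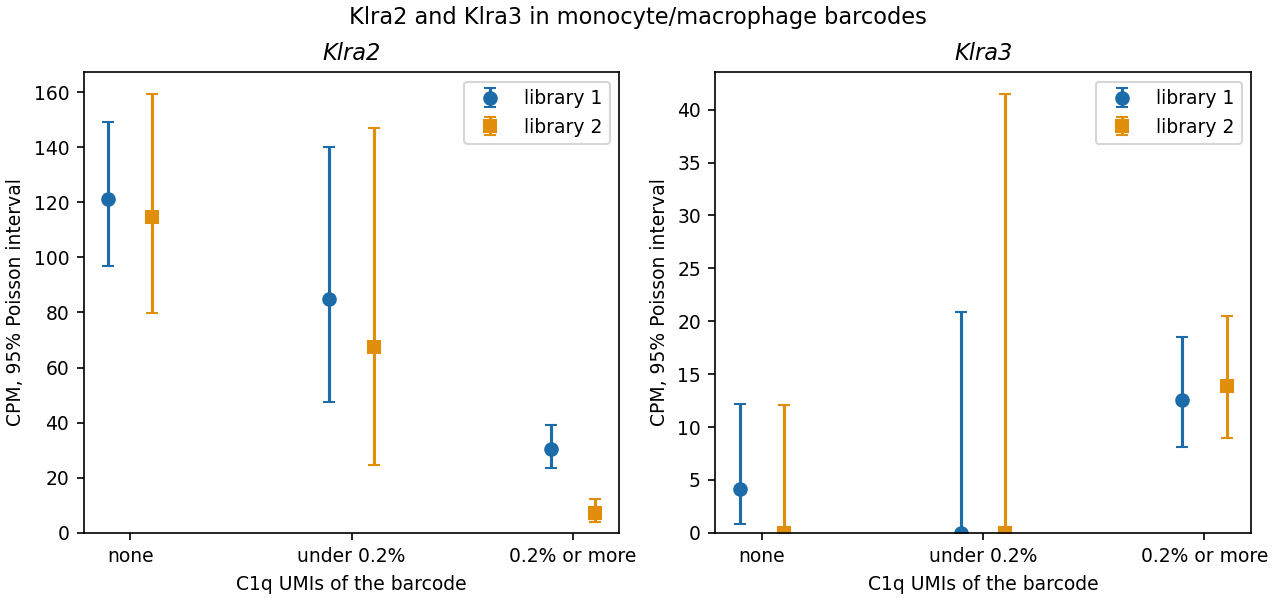
CPM (y axes, different scales) of Klra2 (left) and Klra3 (right) in monocyte/macrophage barcodes by the share of C1qa, C1qb and C1qc among their UMIs (x axis), for library 1 (blue circles) and library 2 (orange squares), with 95% Poisson intervals. Klra2 is higher without C1q, at 121 and 115 CPM against 30.6 and 7.22 CPM, while Klra3 has 25 UMIs in each library with C1q and 3 and 0 without.

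Conventional dendritic barcodes numbered only 15 and 9. Klrk1 had 5 and 3 UMIs there, or 108 CPM (35.0–251) and 94.6 CPM (19.5–277), a 7.07-fold (2.19–17.8) and 17.3-fold (3.13–64.1) higher level than in monocyte/macrophage barcodes. Klrb1b, an inhibitory receptor that binds Clr-b, had 1 and 4 UMIs, against 15 and 9 UMIs in monocyte/macrophage barcodes, a ratio of 4.15 (0.0986–27.0) and 30.8 (6.92–110). At a minimum of 10 UMIs, both were called higher, 2 of 4 members beside 5.64% of 8843 genes, and Klra2 and Klra3 lower, beside 32%. At 50 UMIs Klra2 alone could be read and was called lower, beside 19.8% of 4914 genes, with 3.83% called higher. The calls of Klra2 and Klra3 rest on 0 UMIs in both libraries, and the interval of each ratio includes 1, so neither difference was detectable at this depth. A wider dendritic gate, chosen after these values were seen, held 26 barcodes in each library, with 80.2 and 121 CPM of Klrk1 (7 and 8 UMIs) and 57.3 and 136 CPM of Klrb1b (5 and 9 UMIs). Klrd1 stood at 80.2 CPM (7 UMIs in 4 barcodes) and 75.4 CPM (5 UMIs in 1 barcode). The wider gate drew on conventional dendritic barcodes and on barcodes that met no gate, so it is not separate from the first.

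Plasmacytoid dendritic barcodes, 66 and 33 in number, carried Klrd1 at 113 CPM (61.6–189, 14 UMIs) and 178 CPM (71.5–366, 7 UMIs), in 19.7% and 18.2% of barcodes. Klrc1 and Klrc2 had no UMI beside it in this class in either library. Klra17, which encodes Ly49Q, a receptor known from mouse plasmacytoid dendritic cells, had 3 UMIs (24.1 CPM, 4.98–70.5) and 5 UMIs (127 CPM, 41.2–296).

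Several Klra genes share promoter sequence. RefSeq gives a promoter in GRCm38.p6 for 23 of the 26 members. A block of 15 letters, found after the sequences were seen and printed in capitals below, stood in 7 of 11 Klra promoters, in none of 12 promoters of other members, and in 10 of 32544 promoters (0.0307%, both strands searched). The 250 bases before the start of 5 genes are shown, written 5′ to 3′ on the gene's own strand, which is the minus strand for all 5, because they include the 2 activating Ly49 genes of NK barcodes, the 2 seen in monocyte/macrophage barcodes and the one seen in plasmacytoid dendritic barcodes.
Klra4, chr6:130067272-130067521: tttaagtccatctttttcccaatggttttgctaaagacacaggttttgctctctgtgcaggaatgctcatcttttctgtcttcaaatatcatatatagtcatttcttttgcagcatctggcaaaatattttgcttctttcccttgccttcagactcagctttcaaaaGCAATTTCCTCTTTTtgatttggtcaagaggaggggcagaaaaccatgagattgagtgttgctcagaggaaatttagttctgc
Klra8, chr6:130129899-130130148: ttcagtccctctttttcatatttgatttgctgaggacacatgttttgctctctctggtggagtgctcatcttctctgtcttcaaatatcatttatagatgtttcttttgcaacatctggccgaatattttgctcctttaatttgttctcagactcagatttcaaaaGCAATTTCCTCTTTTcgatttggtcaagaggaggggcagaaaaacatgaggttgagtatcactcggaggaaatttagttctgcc
Klra3, chr6:130337627-130337876: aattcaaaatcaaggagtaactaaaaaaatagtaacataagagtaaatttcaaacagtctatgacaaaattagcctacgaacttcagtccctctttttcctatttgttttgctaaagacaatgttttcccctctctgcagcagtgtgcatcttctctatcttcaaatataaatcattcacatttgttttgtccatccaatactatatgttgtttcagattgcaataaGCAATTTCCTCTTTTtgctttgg
Klra2, chr6:131247363-131247612: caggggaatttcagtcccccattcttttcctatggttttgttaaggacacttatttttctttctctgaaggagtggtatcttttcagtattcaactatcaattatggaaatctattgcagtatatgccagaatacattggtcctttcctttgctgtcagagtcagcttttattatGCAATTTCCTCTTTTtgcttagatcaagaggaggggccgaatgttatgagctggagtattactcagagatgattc
Klra17, chr6:129876673-129876922: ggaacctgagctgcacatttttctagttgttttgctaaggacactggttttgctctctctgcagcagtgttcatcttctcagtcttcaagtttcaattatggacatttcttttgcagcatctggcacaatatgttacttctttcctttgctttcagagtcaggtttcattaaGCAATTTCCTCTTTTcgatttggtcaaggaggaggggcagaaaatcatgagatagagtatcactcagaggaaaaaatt

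Counted from the RefSeq start, the block began 83 bases before it in Klra4, 84 in Klra8, 75 in Klra2, 78 in Klra17 and 23 in Klra3. For Klra3 that start lies upstream of the GENCODE M21 one (window from 130337627, gene to 130337574), so the distance of 23 depends on the start used. The windows of the other genes shown adjoin their GENCODE genes. Over these windows Klra4 and Klra8 were 84.8% identical. Klra3 was 90% identical to Klra9, which had 2 UMIs and none in monocyte/macrophage barcodes, against 28 and 25 of Klra3. The same block therefore stood before genes seen in NK barcodes and before genes seen in myeloid barcodes. Motifs were searched on both strands unless stated. A member counted when any of its promoters held the motif, and some members, Klre1 and Klrc2 among them, have 2 promoters. The shares of all promoters count single promoters, so the 2 kinds of share are not in the same unit. The RUNX motif TGTGGT was found in 8 of 23 members (34.8%), against 14.0% of all promoters. Those 8 included Klrk1, Klrb1c, Klre1, Klrc1 and Klrc2 but none of the 5 shown. The T-box motif AGGTGTGA (1.12% of all promoters) and the PU.1 motif GAGGAAGT (2.46%) were found in none of the 23. The shorter T-box core GGTGT was found in 8 of 23 (34.8%, against 36.3% of all promoters), and the ETS motif CAGGAA in 3 of 23 (13.0%, against 25.6%), Klra4 among them. TATAAA, searched on the gene's strand alone, was found in 8 of 23 (34.8%, against 7.55%), Klra3 among them.

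Sequence likeness also touches the counts, since near-identical transcript ends can exchange or lose reads. The last 500 bases of the members' transcripts were read as 90-base words. Of these, Klrc1 shares 21.9% with another gene (Klrc2), Klra10 15.6%, Klrb1b 14.0%, Klra9 12.4% and Klrb1c 11.4%. Klra3 shares 5.15%, with Klra9 and Klra10. These percentages do not measure the error of the levels, which was not tested. Klra2, Klra4, Klra8, Klrk1, Klrd1 and Klre1 share none. The remaining members were rarely seen: Klrb1, Klrc3, Klri1, Klra5, Klra6 and Klra10 had between 0 and 10 UMIs in a library over all barcodes.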

How the data were processed

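CD45+ tumour cells of each genotype, pooled from 5 tumours, were run as 1 droplet 3′ library, per the labels' protocols. Cell Ranger and mm10 are named in the submitters' processing notes, and a software version of 3.0.2 stands in the matrix, per the file headers. Raw UMI counts were deposited per gene and barcode; how multi-mapped reads were treated is not stated in the sources used.

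Members, lists and gates were chosen with earlier results of these data known. Barcodes under 500 UMIs, under 200 genes or over 10% mitochondrial UMIs were dropped along with copies of barcodes of the other library, which left 5198 and 7999. A T barcode had at least 2 UMIs of Cd3d, Cd3e and Cd3g, and a monocyte/macrophage barcode at least 3 of 10 marker genes at 0.5% of UMIs or more. Classes are gates on marker UMIs, not clusters. Barcodes meeting gates of 2 lineages (51 and 37) were left out. No doublet caller was used in the results given; Scrublet (scanpy 1.11.5) with its own threshold marked 0.0278% and 2.93%, so the highest 6% were left out as an alternative.

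CPM is the UMI sum of a gene over the barcodes of a class in a library, relative to all UMIs of those barcodes. Intervals are exact: Poisson for levels, Clopper-Pearson for shares and conditional binomial for ratios, all for counting error only. With 1 library per genotype no test was possible. Levels are of 3′ tags and not per transcript length. A limit for a count of 0 is 3 UMIs. Ratios leave out 35 symbols that name several genes. Medians of log2 ratios used a pseudocount of 0.5. Members with at least 20 UMIs in a class in each library were to be described with values (9 of 26), and further members are named from their counts. On simulated counts for NK over CD8 T barcodes with granzyme, with 4957 genes, 84.8% of genes changed 4-fold, 98.9% of those changed 8-fold and 0.922% of unchanged genes were called at a minimum of 10 UMIs. These counts were Poisson draws at the pooled level of both classes, without spread between barcodes. They check the rule under counting error and do not give its rate of false calls in the data.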

Additional observations from a re-analysis of the deposited data

Results flagged for a closer look

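Klrg2, a member with no assigned role here, was seen mostly outside the classes compared. Melanocyte barcodes held 27 UMIs of it in library 1 (0.698 CPM) and 47 in library 2 (0.770 CPM), above the limit of 3 UMIs that a count of 0 allows (0.0776 and 0.0492 CPM), whereas all immune classes together held 4 and 3 UMIs. It was the only member with more UMIs in melanocyte barcodes than in all immune classes together in both libraries. No other class had more of it in UMIs, although 4 UMIs in monocyte/macrophage barcodes of library 1 come to 1.38 CPM.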

How the results depend on the processing

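Over the recomputed counts of members, shares by role and C1q ratios, 351 values stayed within 1.5 times or within their counting interval and 37 moved. Counts of 0 that stayed at 0 were among the 351. A turn of direction could be marked only for C1q ratios whose interval lay apart from 1, and none of those turned. Members called fell mostly where fewer UMIs could be read by construction. At a minimum of 10 UMIs, 1 member was higher in NK over CD8 T barcodes with granzyme with barcodes of at least 1000 UMIs, 1 with barcodes thinned to 1000 UMIs and 3 with an NK gate of at least 1 Ncr1 UMI and no Cd8 UMI, and Klrk1 was called in 13 of 13 settings. In NK over monocyte/macrophage barcodes the same 3 settings gave 3, 2 and 2 members higher, and Klra2 was no longer called lower at 50 UMIs with the first and second (0 and 0). For CD8 T barcodes with granzyme over CD4 T barcodes, Klrg1 was no longer called lower with at least 1000 UMIs, thinning, melanocyte genes at most 1% or at least 2 granzyme UMIs (0 in each), and thinning left 2 members higher. For conventional dendritic over monocyte/macrophage barcodes, no member was lower at 50 UMIs with the first and second settings (0 and 0), thinning gave 0 higher and 1 lower at 10 UMIs, and the wide gate gave 1 lower. Without filters on barcodes, 1 member was called higher at 50 UMIs in NK over CD8 T barcodes with granzyme.

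The activating share of NK barcodes in library 2 came to 63.2% with at least 1000 UMIs and 57.1% after thinning, where its interval overlapped that of CD8 T barcodes with granzyme (apart in 9 of 11 settings, and in 11 of 11 in library 1), and the C1q ratio of Klra2 in library 1 to 2.41 after thinning. Lowering the minimum to 10 UMIs gave 8 members higher in NK over CD8 T barcodes with granzyme, 4 higher and 1 lower in CD8 T over CD4 T barcodes, 11 higher in NK over monocyte/macrophage barcodes and 2 higher and 2 lower in conventional dendritic over monocyte/macrophage barcodes. With no minimum these counts were 14, then 8 and 1, then 17 higher and 2 lower, then 2 and 9, and 3 higher and 1 lower within CD8 T barcodes. No paired analysis was possible because each genotype has 1 library and no test was run. Depth limits every NK value of library 2, which rests on 82 barcodes.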

Other observations

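The NK gate accepts Gzma alone, so NK barcodes were split by Ncr1 after the values were seen. In library 1, Klrk1 stood at 481 CPM (351–644) in the 66 barcodes with an Ncr1 UMI and at 563 CPM (459–684) in the 206 without. Klra4 stood at 428 CPM (306–583) with and 431 CPM (340–537) without, and Klrb1c at 396 CPM (279–546) with and 480 CPM (385–592) without. In library 2, Klrk1 stood at 501 CPM (216–986) in 16 barcodes with Ncr1 and at 308 CPM (191–471) in 66 without. The intervals overlapped for each of these. Cd8a had no UMI in the 66 and 16 barcodes with Ncr1 and 1 and 0 UMIs in those without.

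Barcodes that met no gate, 851 in library 1 and 1416 in library 2, held 16.3% and 24.5% of all Klr UMIs of their library. Barcodes left out by the filters held 1.44% and 10.6%.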
